A study of Mus musculus with 2 samples.

Results

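Circulating miRNAs of white blood cells were followed in serum exosomes, small vesicles shed into the blood, of mice carrying Lewis lung carcinoma (LLC), a mouse lung cancer line. The 7 miRNAs were chosen by name, as miRNAs of lymphoid and myeloid cells, out of 1881 on an Agilent mouse miRNA array: mmu-miR-142a-3p, mmu-miR-142a-5p, mmu-miR-146a-5p, mmu-miR-146b-5p, mmu-miR-150-5p, mmu-miR-155-5p and mmu-miR-223-3p, written below without the prefix for mouse. Luciferase-expressing LLC cells were injected under the skin of mice, alone for the LLC group or together with mouse bone marrow mesenchymal stem cells (BMSCs) for the MSC+LLC group. The methods give six-week-old female C57BL/6 mice, which keep their own immune system, for the tumour experiments. Blood was taken at a mean tumour volume of 200 mm3, and 100 ng of exosomal RNA was labelled for each array. The sample labels say serum and the study's text says plasma. The labels list the injected cells, lung and bone marrow as the origin of the samples, although the exosomes were isolated from blood, which collects vesicles from many tissues of the host. How many mice contributed to an array was not stated.

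There was 1 array per group. No test between the groups was possible, no p-value is given, and every SD below comes from the spread among spots of a probe within an array, combined over both arrays for a ratio, which is technical. Both arrays lay on 1 slide and were scanned together, so an effect of the place on the slide cannot be told apart from one of the group. The MSC+LLC array was much dimmer: among probes detected on both, the 75th percentile stood at 2883.1 intensity units for LLC and 250.3 for MSC+LLC, an 11.5-fold gap. Whatever set this gap cannot be told apart from the group. Ratios below were scaled by that percentile, which moves every log2 ratio up by 3.53. A probe counted as detected when over 50% of its kept spots passed the scanner software's flag for being well above background. The dimmest probe to meet this read 20.9 for LLC and 18.8 for MSC+LLC, in intensity units.

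A miRNA is a short RNA that pairs with mRNAs mainly through its seed, bases 2 to 8 from the 5′ end, and lowers their translation and stability. It is cut from a hairpin precursor, and either arm of the hairpin may persist as the mature strand, which is what the suffixes 5p and 3p name. The miRNAs described here are abundant in blood-forming cells: miR-142 across nearly all white blood cell lineages, miR-223 in neutrophils and monocytes, miR-150 in mature lymphocytes, and miR-146a, miR-146b and miR-155 in cells responding to inflammatory signals. White blood cells and platelets release such miRNAs into blood in vesicles and in protein complexes.

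The mature sequences of 6 members follow, from RefSeq on mouse assembly GRCm38.p6, because their seeds set which members share targets and their base composition bears on a comparison made further on. Capitals mark the seed.
miR-142a-3p: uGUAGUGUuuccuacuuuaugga
miR-142a-5p: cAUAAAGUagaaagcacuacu
miR-146a-5p: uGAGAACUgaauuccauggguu
miR-146b-5p: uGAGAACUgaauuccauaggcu
miR-155-5p: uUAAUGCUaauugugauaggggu
miR-223-3p: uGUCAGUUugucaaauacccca

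Among the members shown, only miR-146a-5p and miR-146b-5p shared a seed, GAGAACU. The other seeds shown were not found in another mature miRNA of the RefSeq set. That set held no sequence named miR-150-5p, so its seed and base composition were not compared. Over their 22 bases miR-146a-5p and miR-146b-5p differed at 2 positions near the 3′ end, G18A and U21C. Positions are counted from the 5′ end with the miR-146a-5p base first. Binding of either miRNA to the probes of the other was not tested. The arms of miR-142a lie on 1 hairpin on the plus strand of chromosome 11, miR-142a-5p at chr11:87756867-87756887 and miR-142a-3p at chr11:87756903-87756925. The minus-strand gene Mir142b gives miR-142b, whose 20 bases all lie opposite miR-142a-3p. The genes of miR-146a and miR-146b are on chromosomes 11 and 19, that of miR-150 on chromosome 7, that of miR-155 on chromosome 16 and that of miR-223 on chromosome X.

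All 7 members were detected on the LLC array, where 26.7% of the 1881 miRNAs were. On the MSC+LLC array 4 members were detected, miR-142a-3p, miR-142a-5p, miR-146a-5p and miR-223-3p, against 13.7% of all miRNAs. Each member had 2 probes. Of these 14 probes, 12 were detected on the LLC array, 5 on both arrays, 7 on the LLC array alone and 2 on neither. No member was detected on the MSC+LLC array alone. Few miRNAs were, as 258 of the 1881 were detected on that array and 240 were measured on both.

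**Figure D1:**
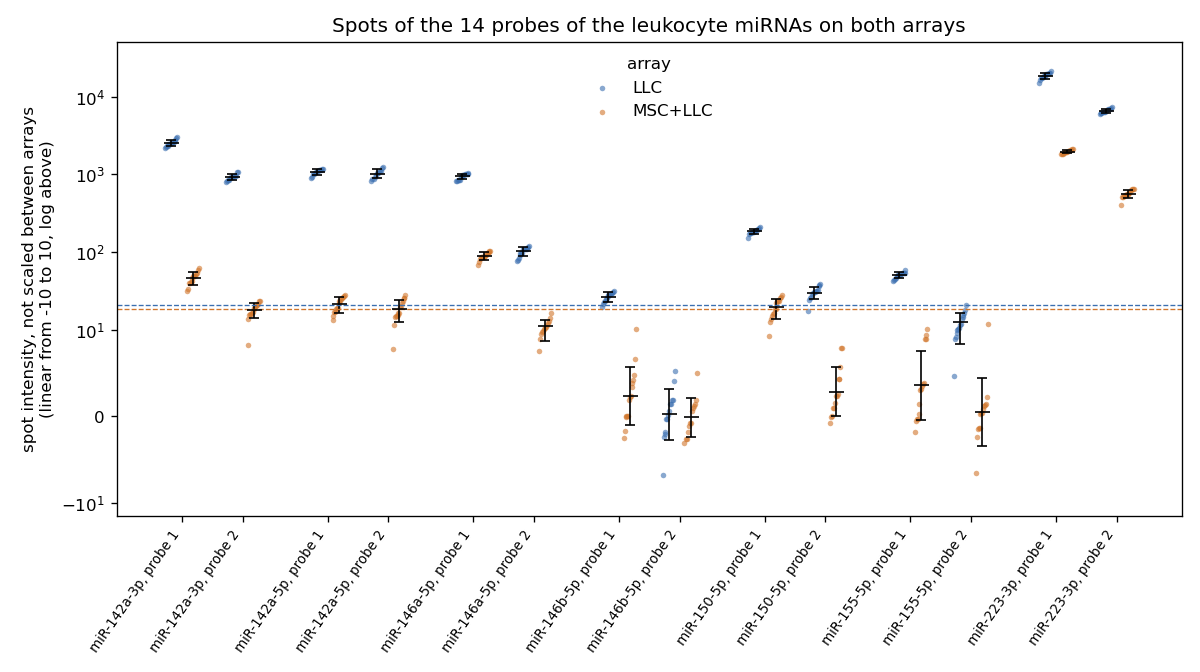
Each point is 1 spot of 1 of the 14 probes of the leukocyte miRNAs, with the LLC array in blue and the MSC+LLC array in orange, in intensity units before scaling between arrays (vertical axis linear from -10 to 10 and logarithmic above). Bars give the mean ± SD over spots, dashed lines the lowest detected probe of each array at 20.9 and 18.8, and the MSC+LLC spots of 3 of the 4 miR-142a probes lie at these lines while those of miR-223-3p lie far above them.

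Among the 4 members measured on both arrays, the miR-142a arms stood apart from the other two. After scaling, miR-142a-3p was 4.74-fold lower and miR-142a-5p 4.36-fold lower on the MSC+LLC array, while miR-146a-5p and miR-223-3p were within 1.1-fold of equal. At least 2-fold lower were 2 of the 4, against 11.2% (27) of the 240 miRNAs measured on both arrays. At least 2-fold higher were 0 of the 4, against 27.1% (65) of the 240. The count of 2 dropped to 1 under normexp, a model-based background correction that lifts dim signals, where miR-142a-5p stood at -0.50. At least 2-fold lower there were 4.17% of the 240. The count was also 1 where at least 75% of spots had to be above background, where miR-142a-5p was no longer measured. The share under that rule was 11% of 228 miRNAs. The median log2 ratio of the 4 was -1.0, beside 0.15 for the 240, and their ratios spanned 2.38. That median rested on which members were measured: the gap to all miRNAs, -1.15, was -0.020 under the 75% rule, -0.070 when 1 spot was enough, -0.081 with the scanner's detection flag and -0.14 with the deposited values or summed signals.

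The 3p arm of miR-142a, a regulator of blood cell development, gave the lowest ratio of the members. Its brighter probe read 2547 ± 239 intensity units over 15 spots on the LLC array, with a lowest spot of 2160, a median of 2540 and a highest of 3010. On the MSC+LLC array it read 46.6 ± 8.93 over 14 spots, with a lowest of 31.9, a median of 47.4 and a highest of 62.5. The spots of the arrays did not overlap before scaling, as was also so for both probes of miR-146a-5p and of miR-223-3p. How many of all probes did so was not counted. The scaled log2 ratio was -2.25 with a spot-to-spot SD of 0.31, and 3 of the 240 miRNAs had a lower one. Before scaling the signal was 54.7-fold lower. The dimmer probe read 927 ± 85.8 over 13 spots for LLC and 18 ± 3.99 for MSC+LLC, where 5 of 15 spots were well above background. It was thus detected on the LLC array alone. Set at the dimmest detected probe, 18.8, it was 4.28-fold lower after scaling, a bound without the spread over spots.

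The 5p arm, cut from the same hairpin, gave a similar ratio. Its brighter probe read 1076 ± 86.5 over 13 spots on the LLC array, between 903 and 1180 with a median of 1100. On the MSC+LLC array it read 21.4 ± 4.74 over 15 spots, between 13.6 and 28.5 with a median of 22.0, and 8 of the 15 spots were well above background. This value sat close to the detection limit, so the call rested on few spots. The scaled log2 ratio was -2.12 with an SD of 0.34, and 6 of the 240 miRNAs had a lower one. Under normexp it was -0.50, short of 2-fold. The second probe read 1026 ± 132 for LLC and 18.4 ± 5.64 for MSC+LLC, and was not detected on the latter. Set at the dimmest detected probe, 18.8, it was 4.74-fold lower after scaling, a bound without the spread over spots. The arms differed from each other by -0.12 in log2 ratio (3p minus 5p), and the spot-to-spot SD of that difference was 0.46.

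The reference point for both arms is what the LLC signal would have read on the dimmer array with no scaled difference. For the brighter and dimmer probe of miR-142a-3p that was 221 and 80.4 intensity units, and for those of miR-142a-5p 93.4 and 89.1. All 4 values lay above the lowest detected probe at 18.8, so all 4 probes were within reach of the array, and all 4 read 18 to 46.6 instead. Between 1000 and 3000 intensity units on the LLC array there were 73 detected probes. Of these, 72 were also detected on the MSC+LLC array, and the exception was the second probe of miR-142a-5p. The median log2 ratio of the 72 was -0.32, and 15 were at least 2-fold lower, with 2 miR-142a probes counted in both values. Of the 70 probes of other miRNAs, 2 had a ratio below that of miR-142a-5p.

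miR-223-3p, which restrains neutrophil maturation and activation, was the member with the most secure reading, since both of its probes were bright on both arrays. The brighter probe read 18674 ± 1710 over 14 spots for LLC and 1973 ± 109 over 12 spots for MSC+LLC. The other read 6589 ± 398 over 14 spots and 567 ± 64.6 over 15 spots. No spot of the LLC array came near the MSC+LLC spots before scaling, as the highest MSC+LLC spots were 2150 and 647 and the lowest LLC spots 14800 and 6020. After scaling the probes gave log2 ratios of 0.28 and -0.012, a mean of 0.14 with an SD of 0.17. Their distance from each other, 0.30, was larger than this mean, so no direction is given to miR-223-3p. It ranked in the middle of the 240 miRNAs, 49.2% of which had a lower ratio.

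miR-146a-5p, which dampens Toll-like receptor signalling by repressing Irak1 and Traf6, was likewise near the middle. Its brighter probe read 942 ± 77.3 over 15 spots for LLC and 89.4 ± 9.97 over 15 spots for MSC+LLC, with all 15 spots well above background on both arrays. Spots ran from 827 to 1040 and from 67.4 to 102 and did not overlap before scaling. The scaled log2 ratio was 0.13, with a spot-to-spot SD of 0.20 and a standard error over spots of 0.052. Where 0 lies is set by the scaling, so no direction is given to miR-146a-5p. Of the 240 miRNAs, 48.8% had a lower ratio. The dimmer probe, at 102 ± 13.8 for LLC, read 11.1 ± 2.41 for MSC+LLC and was not detected there. With no scaled difference it would have read 8.82, under the detection limit, so it bounds nothing downward.

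Differences between members do not depend on a scaling that divides an array by 1 number. The ratio of miR-142a-3p was 5.21-fold below that of miR-223-3p, a log2 difference of -2.38 with an SD of 0.35, and 5.19-fold below that of miR-146a-5p. The ratio of miR-142a-5p was 4.79-fold below that of miR-223-3p, a log2 difference of -2.26 with an SD of 0.38. Each of these differences was more than the SD over spots several times over. Between miR-146a-5p and miR-223-3p the difference was -0.007, with an SD of 0.26. These are spreads within the arrays, and mouse-to-mouse spread was not measured.

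**Figure D2:**
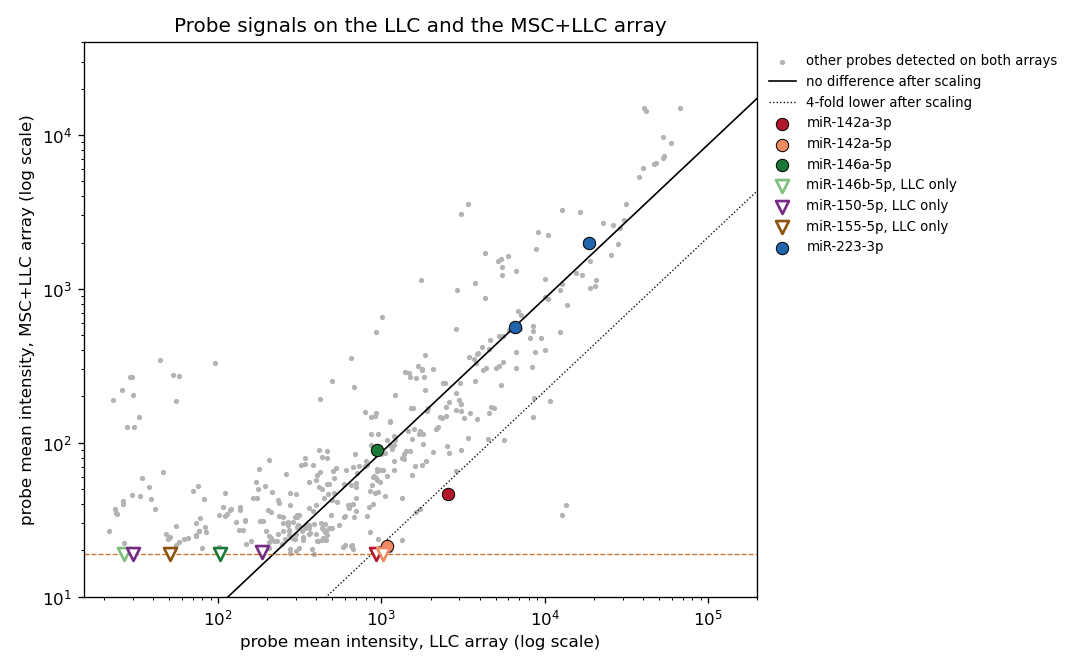
Mean intensity of each probe on the LLC array (horizontal) and the MSC+LLC array (vertical), both on log scales before scaling, with grey points for other probes detected on both arrays. The solid line marks equal level after scaling and the dotted line 4-fold lower. The filled miR-142a points lie near or under the dotted line, miR-146a-5p and miR-223-3p on the solid one. Open triangles mark member probes detected on the LLC array alone, drawn on the dashed detection line at 18.8 or, for 1 miR-150-5p probe, at its own 19.5.

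The other 3 members, miR-150-5p, miR-155-5p and miR-146b-5p, were detected on the LLC array alone, as were 262 (52.2%) of all miRNAs detected there. miR-150-5p, which represses Myb in developing lymphocytes, was the brightest of them. Its brighter probe read 185 ± 14.9 for LLC, from 154 to 210 over 13 spots, and 19.5 ± 5.58 for MSC+LLC, from 9.34 to 28.4 over 15 spots. The MSC+LLC mean lay just above the lowest detected probe, but 7 of its 15 spots were well above background, short of the rule. The second probe read 30.2 ± 5.59 and 2.84 ± 2.82. With no scaled difference these probes would have read 16.0 and 2.62, both under the limit of 18.8.

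miR-155-5p, which is induced in activated lymphocytes and macrophages, read 50.4 ± 4.46 on its brighter probe for LLC, from 43.0 to 58.7 over 15 spots. On the MSC+LLC array this probe read 3.56 ± 4.03, from -1.80 to 10.1, and 0 of 15 spots were well above background. miR-146b-5p, the seed mate of miR-146a-5p, read 26.7 ± 3.70 over 14 spots for LLC and 2.36 ± 3.34 over 15 spots for MSC+LLC. Those MSC+LLC readings were no higher than the negative control spots, which averaged 3.70 ± 3.43 over 965 spots. The second probes of miR-155-5p and miR-146b-5p were detected on neither array.

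For these 3 members a lower level after scaling was not detectable at this signal, a higher one was detectable only beyond a limit, and no fold is given. An unchanged miRNA would have been under the detection limit of the MSC+LLC array. So would, on the brighter probe, a miR-155-5p up to 4.29-fold higher, a miR-146b-5p up to 8.12-fold higher and a miR-150-5p up to 1.22-fold higher after scaling. Of the 262 miRNAs seen on the LLC array alone, 240 had no bound for this reason, 21 were lower by a bound under 2-fold and 1 by a bound of 2-fold or more. Before scaling, the bounds on the brighter probes were 9.48-fold lower for miR-150-5p, 2.68-fold for miR-155-5p and 1.42-fold for miR-146b-5p. None of them was beyond the 11.5-fold gap between the arrays.

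Of the 5 opposite arms of the other members' hairpins, 4 were detected on neither array: miR-146a-3p, miR-146b-3p, miR-155-3p and miR-223-5p. miR-142b, from the minus strand of the miR-142a locus, was detected on neither array as well. Most of the 1881 miRNAs were missed by both arrays too, since 26.7% met the detection rule for LLC and 13.7% for MSC+LLC. Going undetected was thus not particular to these arms. miR-150-3p was measured on both arrays by 1 of its probes, which read 294 ± 32.4 over 6 spots for LLC and 23.6 ± 4.04 over 7 spots for MSC+LLC. Its scaled log2 ratio was -0.11, with a spot-to-spot SD of 0.29 and a standard error over spots of 0.12. For the miR-150 hairpin this was the only ratio under the detection rule used here. Looser rules and summed signals also gave one for miR-150-5p, from -0.26 with summed signals to 0.20 when 1 spot above background was enough.

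Other miRNAs known from lymphoid and myeloid cells were spread around 0, and none was as low as miR-142a. Of 17 such miRNAs on the array, 12 were measured on both, with a median log2 ratio of -0.056 and a range from -1.06 to 1.25. At least 2-fold lower was 1 of the 12, miR-29b-3p at -1.06, against 11.2% of the 240 miRNAs measured on both arrays. At least 2-fold higher was 1, miR-92a-3p of the miR-17-92 cluster at 1.25, against 27.1% of the 240. miR-342-3p, abundant in lymphocytes, stood at 0.15, miR-21a-5p, widely expressed and raised in activated immune cells, at -0.25, and miR-23a-3p, miR-24-3p and miR-27a-3p of 1 myeloid-expressed cluster at 0.28, -0.057 and -0.055. Summed over the list, the brightest probes gave 156700 intensity units for LLC and 14332 for MSC+LLC, 10.9-fold lower. For the 7 members the sums were 23501 and 2156, also 10.9-fold lower, and were carried by miR-223-3p.

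Marker lists of other cells that feed blood vesicles were laid beside these values. The 6 erythroid miRNAs were all detected on both arrays, with a median ratio of -0.16, and spread from -2.33 for miR-144-3p and miR-144-5p to 1.06 for miR-451a and 1.66 for miR-486a-5p. Their summed signal was 117158 intensity units for LLC and 19558 for MSC+LLC, 5.99-fold lower. Of 4 platelet and endothelial miRNAs, 2 were measured, with a median of -0.41, summed signals of 3214 and 202, and miR-191-5p detected on neither array. Of 3 hepatocyte miRNAs, 2 were measured, with a median of 0.23 and summed signals of 5396 and 465. All 4 skeletal muscle miRNAs were measured, with a median of 1.12 and sums of 10870 and 1992. Of 8 mesenchymal stromal miRNAs, 4 were measured, with a median of 0.70, sums of 3832 and 416, and miR-199a-5p and miR-145a-5p detected on neither. The part of these other cells in the miR-142a values was not tested. In such a bulk sample, fewer vesicles from a cell type and less of a miRNA in each vesicle cannot be told apart.

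**Figure D3:**
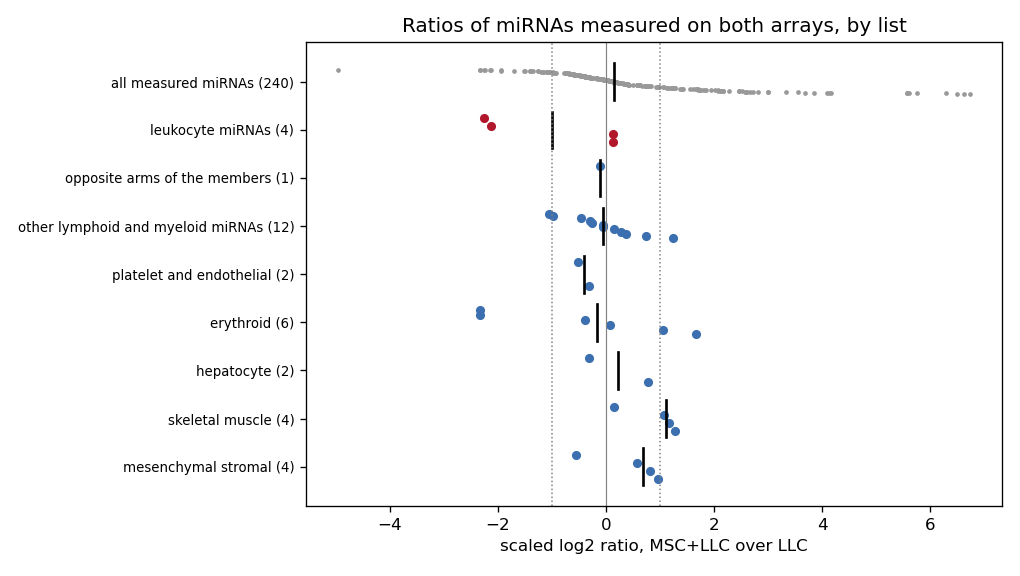
Scaled log2 ratios (MSC+LLC over LLC) of the miRNAs measured on both arrays, 1 point per miRNA, for all 240 and for each list (miR-142b, not measured, was kept in the list of opposite arms), with the number measured in brackets, a black bar at the median and dotted lines at 2-fold. The leukocyte miRNAs form 2 pairs, near -2.2 and near 0.1, and the erythroid list also holds a pair near -2.3.

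The base composition of the mature strands moved with the ratios. Of the 240 miRNAs, 197 (82.1%) had a RefSeq sequence, and over these the G and C share and the scaled log2 ratio had a Spearman rho of 0.31 and a Pearson r of 0.18, across miRNAs of 1 pair of arrays that share labelling and hybridization. Both miR-142a arms are rich in A and U, with a G and C share of 34.8% for 3p and 33.3% for 5p. Of 28 miRNAs with a share under 40%, 12 (42.9%) were at least 2-fold lower and the median ratio was -0.85. In this class 5 miRNAs, 1 of them miR-142a-3p, had a lower ratio than miR-142a-5p, and above 40% none with a sequence did. Between 40% and 50%, where miR-146a-5p and miR-223-3p lie with 40.9% each, 8 of 52 (15.4%) were at least 2-fold lower and the median was -0.29. From 50% to 60% it was 0 of 50, and from 60% up 3 of 67. At least 2-fold higher were 5 of the 28, 6 of the 52, 14 of the 50 and 16 of the 67. Measured miRNAs without a sequence are in none of these classes. Their ratios ran from -4.96, the lowest of the 240, to 6.63. With a straight line on the G and C share taken off, miR-142a-3p stood at -2.04 and miR-142a-5p at -1.89. At a Pearson r of 0.18 that line was shallow, so it could move these ratios only a little. The part of base composition in the miR-142a ratios was not tested.

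**Figure D4:**
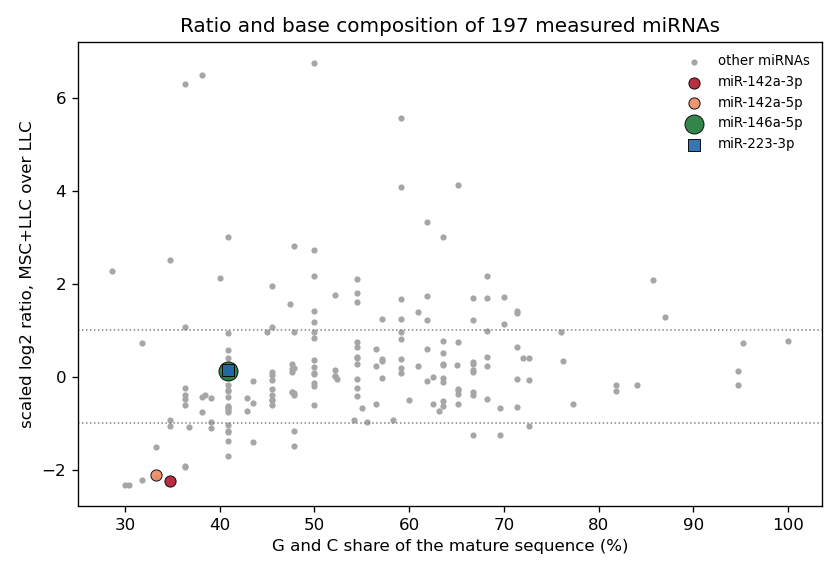
G and C share of the mature sequence in percent (horizontal) against the scaled log2 ratio, MSC+LLC over LLC (vertical), for the 197 measured miRNAs with a RefSeq sequence, 1 point each. The miR-142a arms lie among the low ratios at a share under 40%, while miR-146a-5p and miR-223-3p lie on top of each other at 40.9% and close to 0.

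The miRNAs nearest to a member by ratio, over these 2 arrays and among 145 others with at least 2 measured probes, were as follows. For miR-142a-3p they were miR-144-3p at -2.33 and miR-26b-5p at -2.15, and 2 of the 145 lay within 0.2. For miR-142a-5p they were miR-26b-5p and let-7a-5p, the latter at -1.94, with 3 within 0.2. miR-146a-5p, with miR-2861 at 0.12 and miR-22-3p at 0.11 nearest, had 23 within 0.2. miR-223-3p, with miR-342-3p at 0.15 and miR-2861 nearest, had 22. These counts leave out miRNAs with 1 measured probe, such as miR-144-5p at -2.33, although both miR-142a arms had only 1. The sequences nearest to the miR-142a arms are shown, again from RefSeq with seeds in capitals, to set their base composition beside that of miR-142a.
miR-144-3p: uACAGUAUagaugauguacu
miR-26b-5p: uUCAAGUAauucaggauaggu
let-7a-5p: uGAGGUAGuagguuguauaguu

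Their seeds differ from each other and from both miR-142a seeds. Their G and C shares were 30% for miR-144-3p, 33.3% for miR-26b-5p and 36.4% for let-7a-5p, and all of them were below 40%, as for both miR-142a arms. For the neighbours of miR-146a-5p and miR-223-3p the shares were 94.7% for miR-2861, 52.2% for miR-342-3p and 45.5% for miR-22-3p. All these neighbours were picked by ratio, and a link of composition to ratio was not tested with them.

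The direction of miR-146a-5p and miR-223-3p depended on the scaling, while both miR-142a arms were lower on the MSC+LLC array under each scaling tried. Scaled by all 4 spike-in RNAs, miR-223-3p and miR-146a-5p were also lower on the MSC+LLC array, at -2.75 and -2.76, and the miR-142a arms at -5.13 and -5.01. Under that scaling 85.0% of the 240 miRNAs were at least 2-fold lower and 4.58% higher, and with no scaling 90.4% lower and 3.33% higher. The miR-142a arms had log2 ratios of -2.39 and -2.27 relative to the median of all measured miRNAs under each scaling that divides by 1 number. With the deposited log2 values these distances were -2.34 and -2.31. With normexp they were -2.19 and -1.34.

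**Figure D5:**
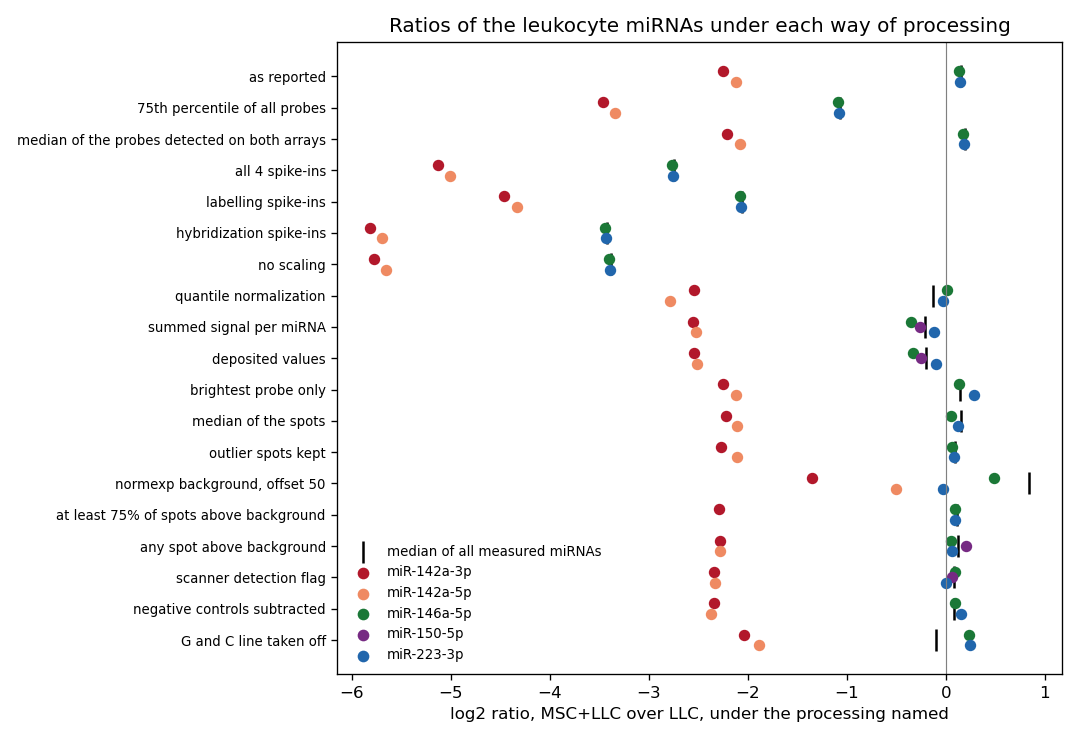
Log2 ratio (MSC+LLC over LLC) of each measured member under each way of processing, 1 line per setting, with a black bar at the median of all measured miRNAs in that setting. The miR-142a points lie left of the bar in all settings where they could be measured, and miR-146a-5p and miR-223-3p lie within 0.4 of it, except miR-223-3p under normexp.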

How the data were processed

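Exosomal RNA of 1 LLC and 1 MSC+LLC sample was labelled with Cy3 and hybridized to mouse miRNA arrays from Agilent. Groups came from the sample titles. The authors read the scans with Feature Extraction, version 10.7 in the submitters' processing notes and 11.5.1.1 in the scanner headers, and the deposited scanner files hold background-subtracted spot intensity on a linear scale. A further deposited table gives log2 values, normalized by the authors with GeneSpring, and served as an alternative.

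The 7 members and every list were chosen with earlier results of these data known. Control spots and outlier spots (14 of the members' 210 on the LLC array and 10 on the other) were left out, and no spot was saturated. Spots of a probe were averaged, signals were divided by each array's 75th percentile over probes measured on both, and log2 ratios of MSC+LLC over LLC were averaged over a miRNA's measured probes. A probe seen on the LLC array alone was bounded against the higher of its own MSC+LLC signal and the dimmest detected probe there. Such a bound leaves out the spread over spots, and a probe brighter than the dimmest detected one can still go undetected. Called meant at least 2-fold. Precision is limited by the 1 array per group. Named were the members, the listed miRNAs and, among others with at least 2 measured probes, the 2 nearest in ratio to each measured member. The list of opposite arms also held miR-142b, from the minus strand of the miR-142a locus. Sequences matched 197 of the 240 measured miRNAs by name. The file headers name an older mouse build, and the coordinates printed are those of the RefSeq table.

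Alternatives were other scalings, probe and spot summaries, detection rules, thresholds and backgrounds, with normexp at an offset of 50. Subtracting negative controls and taking off the line on G and C share were chosen after seeing the data. Functions were tested on simulated data. Python 3.11.15, numpy 2.4.6, pandas 2.3.3, scipy 1.17.1, matplotlib 3.10.9, R 4.3.3 and limma 3.58.1 were used.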

Additional observations from a re-analysis of the deposited data

How the results depend on the processing

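With 1 array per group no replicate could be left out. No paired analysis was possible because a single array stood for either group. Of 155 values recomputed under 20 settings, 104 moved by less than the spread over spots, or in a count by no more than 1.5-fold. The median log2 ratio of the measured members, -1.0 as reported, was -2.21 by the 75th percentile of all probes, -3.88, -3.21 and -4.56 by all 4, the labelling and the hybridization spike-ins, and -4.52 with no scaling. In these 5 settings 4 members were at least 2-fold lower in place of 2. Of the 240 miRNAs, 52.9%, 85%, 75%, 90.4% and 90.4% were at least 2-fold lower in these settings, in the same order. The median was -1.29 with quantile normalization, -0.35 with summed signals per miRNA, -0.33 with the deposited values and -0.27 with normexp. It turned to 0.090 when at least 75% of spots had to be above background, which leaves 3 members and drops miR-142a-5p, to 0.050 when 1 spot was enough and to -0.001 with the scanner's own detection flag, both of which add miR-150-5p. A median of so few members thus follows which of them are measured. Only 1 member, miR-142a-3p, was at least 2-fold lower under normexp, against 4.17% of 240 miRNAs. Only 1 was under the 75% rule, against 11% of 228. The spread among members, 2.38 as reported, was 2.80 with quantile normalization and 1.84 with normexp. The miR-142a arms were lower on the MSC+LLC array in each setting that measured them, from -5.81 to -0.50. The signs of miR-146a-5p and miR-223-3p changed with the scaling. The low signal of the MSC+LLC array limits what can be seen downward, and miR-155-5p and miR-146b-5p were not measured in any setting.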

Other observations

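In the deposited table of the whole series, values of miRNAs that the scanner software did not detect stand in for a fixed summed signal of 0.1 on each array, before the authors' constant for that array. For miR-142b, miR-146a-3p, miR-146b-3p, miR-155-3p and miR-223-5p, detected on neither array, the table reads -10.34 for LLC and -6.80 for MSC+LLC, a difference of 3.54 on the log2 scale with no measured signal behind it. For miR-155-5p and miR-146b-5p, detected by the software on the LLC array alone, the table's differences were -3.53 and -2.61, with the stand-in on the MSC+LLC side. For members that the software detected on both arrays the table gave -2.54 for miR-142a-3p, -2.51 for miR-142a-5p, -0.33 for miR-146a-5p, -0.25 for miR-150-5p and -0.10 for miR-223-3p.

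The platelet and endothelial miRNA miR-126a-3p read -0.51 and miR-185-5p read -0.31 in scaled log2 ratio. The mesenchymal stromal list, of the cell type that was co-injected, had 3 of its 4 measured miRNAs above 0. Most of the 240 miRNAs measured on both arrays also lay above 0, with a median of 0.15. None of the 4 was at least 2-fold higher, against 27.1% of the 240.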
